A study of Gallus gallus with 20 samples.

Results

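Guangxi Ma is a local chicken breed of China. Among 20 liver libraries from its hens, 3 had a low level of the yolk protein transcript VTG2 and the other 17 a high one. The 3 were chosen by 1 measured value, a VTG2 abundance under 1000 TPM (a transcript abundance per length, scaled to the total of its library). They were week 72 low replicates 1, 2 and 4. They came from 72-week-old hens of the low laying class. The other 17 were the 4 libraries of 32-week-old hens, whose sample labels also give high laying, the 4 of 50-week-old high layers, the 4 of 50-week-old low layers, the 4 of 72-week-old high layers and week 72 low replicate 3. All were libraries enriched for mRNA from liver, with no treatment or genetic change in the labels. Whether the members of a group were different birds is not in the labels. The p-values therefore cover the spread among these libraries alone, and that spread may be technical. The 3 all carry the same age and laying class, so the state of the yolk genes cannot be told apart from what else those hens shared, except through week 72 low replicate 3, the single library of that class with vitellogenin on.

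In a laying hen, estrogen from the ovary drives the liver to make yolk precursors, which travel through the blood to the growing follicles. The main ones are the vitellogenins, large phosphorylated lipid carriers that are cleaved into yolk proteins, and very low density lipoprotein particles, which are built on apolipoprotein B and carry apovitellenin. Lipid synthesis in the liver is raised during lay to fill those particles, and carrier proteins for vitamins and metals are secreted beside them.

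VTG2 (chromosome 8, 16204330 to 16225309, build GRCg7b) had 725, 95.1 and 241 TPM in week 72 low replicates 1, 2 and 4, against a lowest value of 4528, a median of 13175 and a highest of 19153 TPM in the 17 other livers. The value nearest below the threshold was thus 725 TPM, and the nearest above it was 4528 TPM, in week 50 low replicate 3. VTG1 had 48.0, 0.443 and 17.3 TPM in the 3 livers, against 595, 6340 and 13300 TPM as the lowest, median and highest of the 17. VTG3 had 23.1, 13.1 and 8.54 TPM, against 496, 2035 and 3399 TPM. The vitellogenins were not at 0: VTG2 still stood at 5.50%, 0.722% and 1.83% of the median of the 17 and ranked 143, 1059 and 396 among all genes of its library. Because VTG2 made the split and its paralogs follow it, these 3 genes are given as values without a test and enter no count below.

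Outside the vitellogenins, 116 of 12805 tested genes (0.906%) were lower in the 3 livers and 28 (0.219%) were higher (limma on log2(TPM + 1), Benjamini-Hochberg adjusted p under 0.05). Many of the differences were large: 41 of the lower genes and 8 of the higher ones differed by more than 4-fold. In 79 of the 116 and 12 of the 28, the 3 values did not overlap the 17, while over all tested genes 1.14% lay wholly below and 0.141% wholly above (1.28% in either direction). Week 72 low replicate 3 lay within the range of the other 16 livers for 107 of the 116 lower and 26 of the 28 higher genes. The share over all tested genes was not computed, and replicate 3 entered these calls as 1 of the 17. These 2 counts are therefore a description only. Over all tested genes 65.8% of differences were negative and 34.2% positive. An unadjusted p under 0.05 was reached by 10.03% on the lower and 3.06% on the higher side, and by 6.84% and 7.29% after median-ratio scaling. Counts in the gene lists below stand against these shares. The lowest of the 3 values came from replicate 1 in 43, replicate 2 in 37 and replicate 4 in 36 of the lower genes. Among the higher genes, the highest came from replicate 2 in 20, replicate 1 in 7 and replicate 4 in 1.

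The counts move with the libraries and the scaling. Without week 72 low replicate 1, 50 genes were lower and 12 higher, without replicate 2 14 were higher, and without replicate 4 74 were lower. With terms for age and laying class, 46 were lower and 2 higher. Against the 4 week 72 high livers alone, which share the age, 28 (0.219%) were lower and 3 (0.0234%) higher. The genes VTG1, VTG2, VTG3 and APOV1 made up 0.0587% to 0.610% of the listed TPM in the 3 livers and 2.21% to 12.5% in the 17, and TPM spreads what they leave over all other genes. The median difference of all tested genes was -0.11 on the log2 scale. Scaling by median ratios moved it by 0.12 to 0.01, and rescaling without those 4 genes moved it by -0.10 to -0.21. Of the called genes 80.6% were lower as reported, 61.9% after median-ratio scaling and 91.0% after rescaling.

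**Figure D1:**
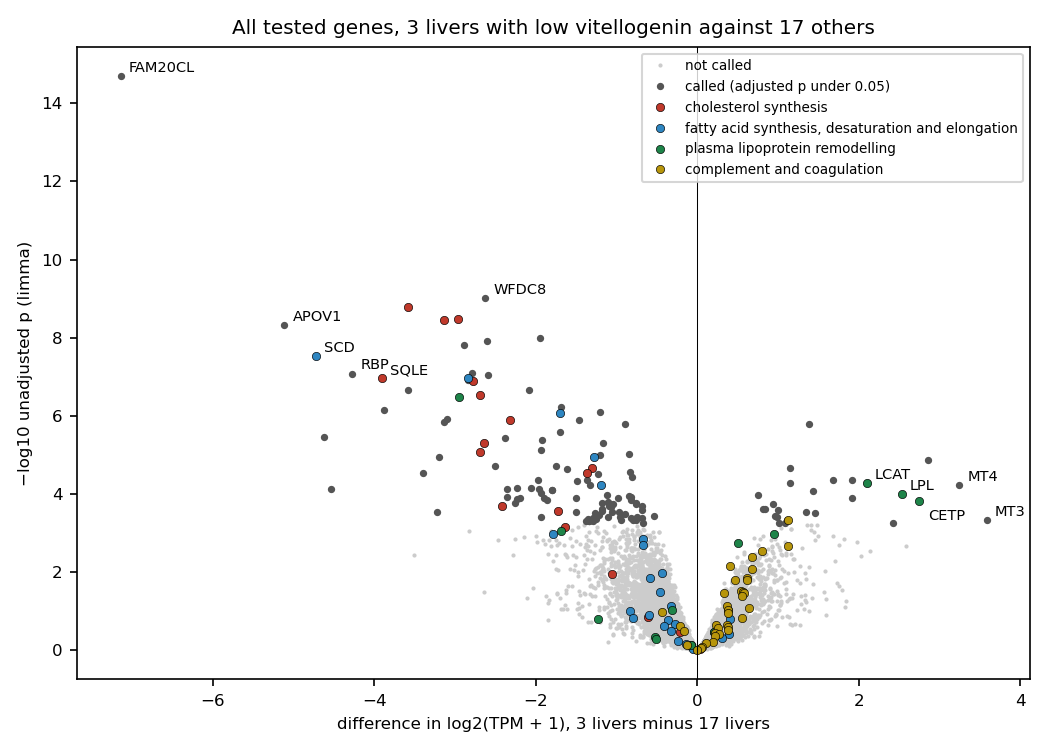
Difference in log2(TPM + 1) between the 3 livers with VTG2 under 1000 TPM and the 17 others (x axis, positive means higher in the 3) against the −log10 unadjusted p from limma (y axis), a point per tested gene, without the vitellogenins. Called genes are dark, and members of 4 lists are coloured whether called or not. FAM20CL stands apart at -7.14, and the cholesterol synthesis genes lie on the lower side.

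The largest difference outside the vitellogenins was that of FAM20CL. This gene (chromosome 1, 50842516 to 50846975), a relative of the secretory pathway kinase FAM20C that phosphorylates secreted proteins in mammals, had 8.66, 11.2 and 10.8 TPM in the 3 livers, against 523, 1876 and 2608 TPM as the lowest, median and highest of the 17. The 3 values stood at 0.461%, 0.597% and 0.574% of the median of the 17, and the groups were far from touching. On the log2(TPM + 1) scale the difference was -7.14 ± 0.37 (SE; adjusted p = 2.55e-11). FAM20C itself had 55.3, 75.9 and 50.1 TPM against 36.5, 59.0 and 101 TPM, with a difference of -0.01 ± 0.23.

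APOV1, the apovitellenin of yolk-bound lipoprotein (chromosome 1, 83462896 to 83465817), had 1787, 4838 and 199 TPM in the 3 livers, against 11755, 43889 and 73252 TPM in the 17 (-5.11 ± 0.55, adjusted p = 6.78e-06). The order of the 3 livers was not that of VTG2: replicate 2, lowest for VTG2, had the most APOV1. RBP, the riboflavin-binding protein that brings vitamin B2 to the egg (chromosome 8, 20930694 to 20949055), had 397, 13.3 and 174 TPM against 963, 1946 and 3258 TPM (-4.27 ± 0.55, adjusted p = 7.06e-05). For RBP replicate 2 was again the odd one, now the lowest by far. TCN2, which encodes the cobalamin carrier transcobalamin (chromosome 15, 10785036 to 10787546), had 72.2, 109 and 73.8 TPM against 258, 436 and 1299 TPM (-2.59 ± 0.33, adjusted p = 7.08e-05).

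The yolk precursor list, with the vitellogenins left out, did not move as a whole. Of its 12 members, APOV1 and RBP were lower, 0 were higher and the median difference was -0.02. APOB, the backbone of the lipoprotein particle, had 667, 199 and 495 TPM against 272, 2074 and 3130 TPM. Week 50 high replicate 1, at 272 TPM, lay inside the range of the 3, and APOB did not pass (-1.98 ± 0.55, adjusted p = 0.0865). It passed without that library or without week 50 low replicate 3. MTTP, which loads lipid onto APOB, had 72.7, 67.9 and 56.9 TPM against 32.0, 69.0 and 101 TPM (0.01 ± 0.26). Its paralog MTTPL, by contrast, had 215, 377 and 133 TPM against 487, 736 and 1298 TPM and was lower (-1.70 ± 0.27, adjusted p = 0.000934). Reads of such paralogs are uncertain as far as the counting could split them.

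The remaining yolk carriers overlapped between the groups. APOA1, the main protein of high density lipoprotein, had 20784, 29775 and 17078 TPM against 2658, 9185 and 20473 TPM (1.46 ± 0.40, adjusted p = 0.0818), and passed without week 50 low replicate 4. APOC3 differed by 0.89 ± 0.42, APOA5 by 0.37 ± 0.33 and APOA4 by 0.11 ± 0.63. The iron carrier TF differed by -0.14 ± 0.26, the thyroid hormone carrier TTR by -0.27 ± 0.34, the biotin-handling BTD by -0.05 ± 0.24 and the retinol carrier RBP4 by 0.03 ± 0.34. None of these passed. ZP1, an egg coat protein that birds make in the liver, had 484, 147 and 294 TPM against 368, 713 and 1304 TPM (-1.29 ± 0.31, adjusted p = 0.0414). Its call was lost in 12 of the 20 fits that left out 1 library, among them those without week 72 low replicate 2 or 4. It was also lost in limma after median-ratio scaling (adjusted p = 0.0740).

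Several genes on no list, named after their values were seen, were lower as well. WFDC8, a protein with a WAP domain, had 78.0, 43.5 and 51.3 TPM against 243, 323 and 698 TPM (-2.63 ± 0.26, adjusted p = 2.45e-06), with no overlap. Its neighbours WFDC2 (-2.60 ± 0.30) and SPINT4, named for a Kunitz protease inhibitor domain (-2.51 ± 0.46), were lower too. SPINT4 was low throughout, with 0.141, 0.134 and 0.536 TPM against 1.86, 5.51 and 23.3 TPM, and missed the threshold without week 72 low replicate 1 (adjusted p = 0.0565). SLC39A5, a zinc importer of the cell membrane, had 15.7, 18.9 and 37.1 TPM against 61.6, 83.6 and 146 TPM (-1.95 ± 0.22, adjusted p = 1.28e-05).

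**Figure D2:**
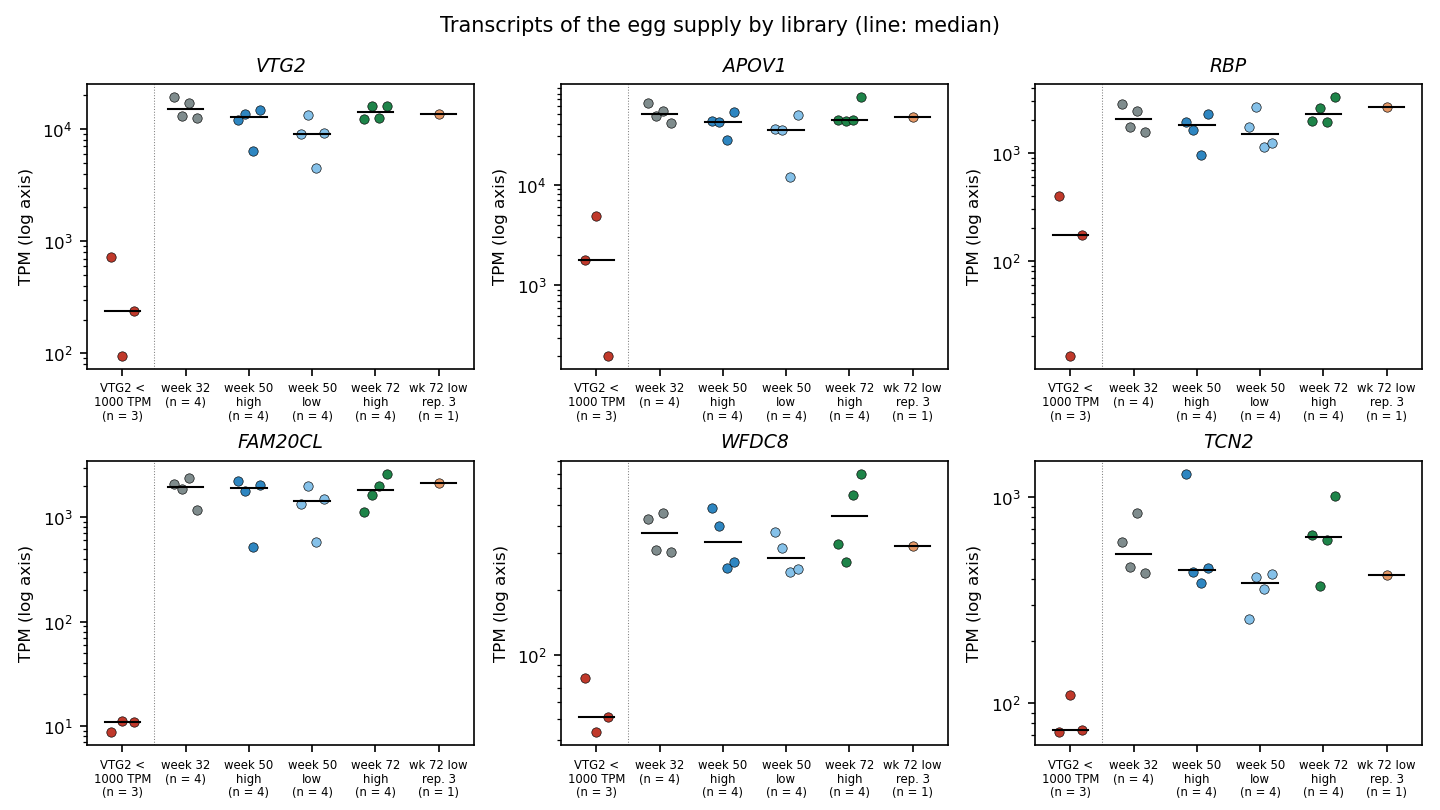
TPM on a log axis of VTG2, which defined the split, and of 5 genes called lower, a point per library and a line at each median, with the 3 livers left of the dotted line and the 17 others by age and laying class to its right. FAM20CL lies between 8.66 and 11.2 TPM in the 3 livers and at or above 523 TPM elsewhere, including week 72 low replicate 3.

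Cholesterol synthesis had the largest share of called members of the lists. Of its 19 tested members 13 were lower in the 3 livers and 0 higher, 13 did not overlap the 17, and the median difference was -2.32. Against 0.906% of all tested genes called lower, that is most of the pathway. The median deviation of its members from the mean of the 17 livers was -2.22, -2.30 and -1.86 log2 units in week 72 low replicates 1, 2 and 4, while the 17 ranged between -0.91 and 0.72, with week 72 low replicate 3 at -0.11. The lower members included steps from after mevalonate to the end of the pathway. The count was 11 with terms for age and laying class, 12 within week 72, 8 against the week 72 high livers alone and between 9 and 14 when 1 library was left out.

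SQLE, the epoxidase that turns squalene toward sterols, had 5.21, 0.745 and 5.08 TPM against 14.2, 62.0 and 167 TPM (-3.91 ± 0.51, adjusted p = 7.85e-05). DHCR7, which makes cholesterol from its direct precursor, had 5.81, 3.86 and 6.603 TPM against 27.8, 49.7 and 117 TPM (-3.13 ± 0.33, adjusted p = 5.78e-06). In both the 3 livers lay below every one of the 17. The lanosterol demethylase CYP51A1 had 21.5, 12.5 and 24.7 TPM against 69.3, 149.9 and 326 TPM (-2.96 ± 0.31, adjusted p = 5.78e-06). The isomerase IDI2, on no list and named after its values were seen, had 31.4, 33.0 and 27.4 TPM against 79.3, 237 and 465 TPM (-2.79 ± 0.36, adjusted p = 7.06e-05).

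Between these, MSMO1 (-2.78), HSD17B7 (-2.70), NSDHL (-2.69) and LSS (-2.32) of the steps after squalene were lower, as were FDPS (-2.64), MVK (-1.30) and SC5D (-1.37), and SC5D alone of the called members overlapped the 17. Adjusted p-values of these 7 lay between 8.45e-05 and 0.00688. SC5D lost its call without week 72 low replicate 1 or 4, and MVK without replicate 4. FDFT1, the squalene synthase (-2.42 ± 0.54, adjusted p = 0.0256), lost its call without any of the 3 livers. The entry of the pathway stood apart from the rest. HMGCS1 had 1075, 185 and 1075 TPM against 377, 926 and 1634 TPM (-0.62 ± 0.40), and only replicate 2 was below the 17. ACAT2 (-1.06 ± 0.38) and PMVK (-0.22 ± 0.22) did not pass, nor did MVD (-1.63 ± 0.41, adjusted p = 0.0571), whose values did not overlap. LBR (-0.07) and GGPS1 (0.03) were close to 0.

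The regulators of the pathway split. SREBF2, the transcription factor that turns on sterol genes, had 21.0, 23.6 and 25.04 TPM against 38.9, 65.7 and 108 TPM (-1.46 ± 0.22, adjusted p = 0.000538). INSIG1, which holds that factor back in the endoplasmic reticulum, had 219, 81.2 and 251 TPM against 275, 593 and 884 TPM (-1.75 ± 0.32, adjusted p = 0.00512), a call lost without replicate 2. Both lay wholly below the 17. SREBF1, the relative that drives fatty acid genes, had 23.1, 44.9 and 38.4 TPM against 13.9, 23.1 and 59.8 TPM, and did not pass (0.57 ± 0.31). The sterol-sensing receptor NR1H3 differed by -0.19 ± 0.20. SOAT1, which esterifies cholesterol, had 24.7, 28.8 and 17.47 TPM against 5.62, 10.3 and 23.5 TPM (1.03 ± 0.30, adjusted p = 0.106). In all, 2 of the 18 tested members of the sterol regulation and uptake list were lower and 0 higher, with a median of -0.31. The lower count was 0 with terms for age and laying class, 1 within week 72 and 1 against the week 72 high livers alone. With those terms in limma, SREBF2 differed by -1.33 (adjusted p = 0.0504) and INSIG1 by -1.50 (adjusted p = 0.216).

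**Figure D3:**
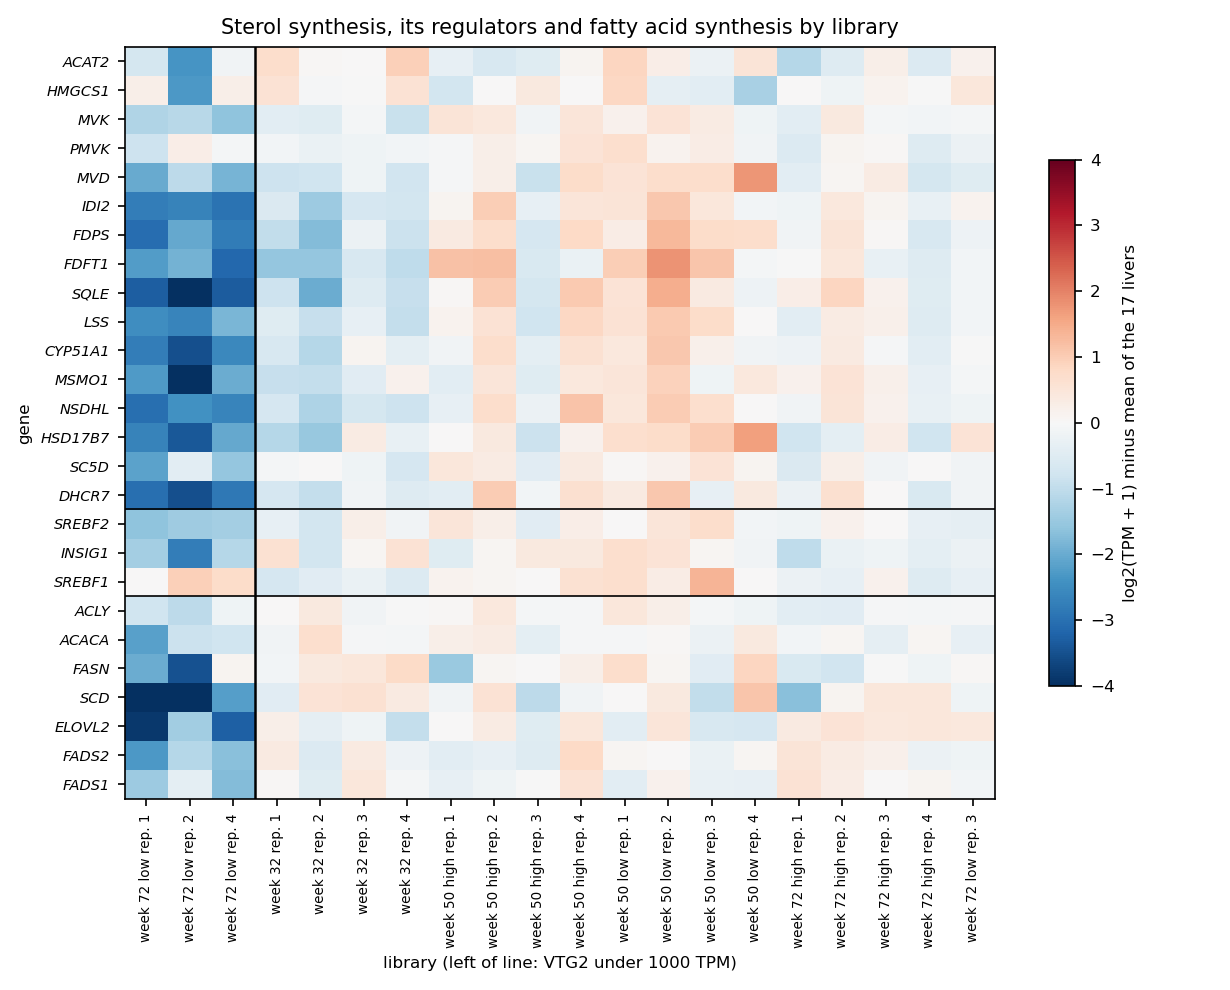
Log2(TPM + 1) minus the mean of the 17 livers (colour) for genes of sterol synthesis, their regulators and fatty acid synthesis (rows, in pathway order) in each library (columns), with the 3 livers left of the line. Most sterol rows are blue in those 3 columns and near 0 in week 72 low replicate 3, the rightmost column, while HMGCS1, PMVK and SREBF1 are not uniformly blue.

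Of 28 tested members of the fatty acid synthesis list 5 were lower and 0 higher, with a median of -0.43. The call count was 3 without week 72 low replicate 1, 3 with terms for age and laying class, 2 within week 72 and 0 against the week 72 high livers alone. SCD, the desaturase that makes oleate, had 22.9, 26.5 and 359 TPM against 509, 1772 and 3503 TPM (-4.73 ± 0.57, adjusted p = 2.93e-05). Replicate 4 was much higher than the other two, yet still below all 17. ELOVL2, which lengthens polyunsaturated chains, had 33.3, 188 and 50.1 TPM against 253, 584 and 725 TPM (-2.84 ± 0.37, adjusted p = 7.85e-05). The polyunsaturated desaturases FADS2 (-1.70 ± 0.25, adjusted p = 0.000392) and FADS1 (-1.20 ± 0.24, adjusted p = 0.0111) were lower, the second with overlap and not without replicate 1 or 4.

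ACACA, the carboxylase that commits carbon to fatty acids, had 32.9, 82.2 and 87.6 TPM against 115, 147 and 243 TPM (-1.28 ± 0.23, adjusted p = 0.00314), and lost its call without replicate 1. FASN, the synthase itself, had 90.6, 31.4 and 392.2 TPM against 129, 370 and 655 TPM (-1.78 ± 0.47, adjusted p = 0.0710). Replicate 4 sat above the median of the 17 while the other two lay below all of them. ACLY (-0.67 ± 0.18), ELOVL6 (-0.60 ± 0.38) and the lipogenic nuclear protein THRSP (-0.42 ± 0.35) did not pass.

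Among lipid carriers inside the cell, FABP3 had 8.51, 6.27 and 0.299 TPM against 22.9, 98.7 and 391 TPM (-4.62 ± 0.75, adjusted p = 0.00124), with week 72 low replicate 3 at the top of the 17. FABP1, the abundant liver form, had 893, 993 and 541 TPM against 569, 1455 and 3277 TPM and did not pass (-0.91 ± 0.34). DBI, the acyl-CoA-binding protein, had 1023, 1187 and 1678 TPM against 1682, 2902 and 3695 TPM (-1.17 ± 0.20, adjusted p = 0.00159), just short of touching. The lysophospholipid acyltransferase MBOAT2 had 1.05, 2.90 and 1.13 TPM against 11.9, 34.2 and 95.5 TPM (-3.88 ± 0.57, adjusted p = 0.000358).

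Membrane and storage lipid genes gave fewer calls. In the phospholipid list 2 of 18 were lower, namely CDIPT, the phosphatidylinositol synthase (-1.27 ± 0.30, adjusted p = 0.0338), and PEMT, which makes phosphatidylcholine (-0.74 ± 0.18, adjusted p = 0.0395), and 17 of 18 differences were negative, beside 65.8% of all genes. CDIPT lost its call without any of the 3 livers and PEMT in 8 of the 20 fits without 1 library. After median-ratio scaling 0 of the 18 were called in limma, with CDIPT at an adjusted p of 0.101 and PEMT at 0.129. In the triglyceride list 2 of 19 were lower: AGPAT2, which makes phosphatidate (-1.80 ± 0.37, adjusted p = 0.0136), and the lipid droplet protein PNPLA3 (-1.87 ± 0.41, adjusted p = 0.0198). Both overlapped the 17. AGPAT2 missed the threshold without any of the 3 livers, and PNPLA3 without replicate 1 or 4. Of 31 tested genes of fatty acid oxidation and ketogenesis 0 passed in limma, 1 had an unadjusted p under 0.05 on the lower side and 3 on the higher, and their median was 0.01. NCEH1, a cholesteryl ester hydrolase, had 32.9, 33.7 and 34.9 TPM against 57.8, 183 and 390 TPM (-2.39 ± 0.39, adjusted p = 0.00125).

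Genes that act on lipoproteins in plasma went both ways. Of 13 tested members 3 were higher and 1 lower. LCAT, which esterifies cholesterol on high density lipoprotein, had 589, 779 and 400 TPM in the 3 livers against 49.8, 134 and 336 TPM in the 17 (2.09 ± 0.42, adjusted p = 0.0106). CETP, which moves cholesteryl esters between particles, had 4.43, 71.9 and 20.7 TPM against 0.314, 1.79 and 9.63 TPM (2.75 ± 0.60, adjusted p = 0.0214). LPL, the lipase that empties triglyceride-rich particles, had 19.7, 20.9 and 0.609 TPM against 0, 0.247 and 3.71 TPM (2.53 ± 0.53, adjusted p = 0.0165). LCAT alone did not overlap, and replicate 4 looked like the 17 for LPL. The median of the 17 for LPL was under the 1 TPM of the filter, so its entry into the test may rest on replicates 1 and 2.

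The higher count of that list was 0 without replicate 2, 1 without replicate 1 and 2 without replicate 4. LCAT alone was also called against the week 72 high livers (2.03 ± 0.29, adjusted p = 0.0432). LPL is a marker of fat cells as well. Of the 5 tested adipocyte markers LPL alone was called, and their summed level was 92.0 to 254 TPM in the 3 livers and 42.0 to 456 TPM in the 17, with none at 0 in all of the 3. The part of fat cells in the LPL result was not tested.

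Metallothioneins, small proteins that bind zinc and copper, had the largest differences on the higher side. MT4 (chromosome 11, 2139908 to 2141441) had 7431, 22750 and 10405 TPM in the 3 livers, against 463, 999 and 5543 TPM in the 17 (3.24 ± 0.66, adjusted p = 0.0111). All 3 lay above the 17. MT3, its neighbour, had 1005, 1316 and 1070 TPM against 21.8, 63.4 and 1076 TPM, the top value being week 72 high replicate 1 (3.58 ± 0.87, adjusted p = 0.0436). MT4 lost its call without replicate 2, and MT3 in 15 of the 20 fits that left out 1 library. The zinc-sensing activator MTF1 differed by -0.17 ± 0.14, and the zinc exporter SLC30A1, at 58.4, 88.1 and 41.2 TPM against 28.3, 42.8 and 55.0 TPM, by 0.46 ± 0.19, neither passing. In the calcium, phosphate and metal list of 19 tested genes, MT4, MT3 and FAM20CL were the called ones.

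The other higher genes without overlap were of mixed function. NR0B1, an orphan nuclear receptor that represses other receptors, had 64.3, 134 and 66.8 TPM against 8.14, 23.3 and 58.3 TPM (1.91 ± 0.41, adjusted p = 0.0187). GADD45A, induced by DNA damage and other stress, had 22.5, 10.7 and 17.04 TPM against 3.69, 6.70 and 10.2 TPM (1.15 ± 0.23, adjusted p = 0.0106). IP6K2, an inositol phosphate kinase, had 138, 198 and 149 TPM against 33.3, 61.2 and 110.1 TPM (1.43 ± 0.30, adjusted p = 0.0144). NR0B1 and IP6K2 lost their calls without any of the 3 livers, and GADD45A without replicate 1 or 4. BHLHE22, a transcription factor, was barely expressed, with 3.002, 2.67 and 2.15 TPM against 0.0595, 0.258 and 1.49 TPM (1.38 ± 0.21, adjusted p = 0.000614). It was the only higher gene called in every one of the 20 fits that left out 1 library, against 39 lower genes. The median of the 17 was under the 1 TPM that the filter asks for in 4 libraries. Entry of BHLHE22 into the test may thus rest on the 3 livers where it was high, which limits what its calls mean.

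RTN4RL2, a cell surface receptor, differed by 1.15 ± 0.21, AMT, an enzyme of glycine breakdown, by 1.01 ± 0.25, and the guanine nucleotide exchange factor-like RAPGEFL1 by 0.75 ± 0.16. ROR1, a receptor tyrosine kinase-like protein, differed by 0.83 ± 0.19. Adjusted p-values of these 4 ran between 0.00538 and 0.0493. RTN4RL2 lost its call without replicate 2, RAPGEFL1 without 2 or 4, ROR1 without any of the 3 and AMT in 13 of the 20 fits.

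Some of the higher calls rested on 2 of the 3 livers. LDHB, a subunit of lactate dehydrogenase, had 1300, 2645 and 443 TPM against 151, 245 and 798 TPM (2.10 ± 0.42, adjusted p = 0.0105). SERPINF1, a secreted serpin, had 297, 491 and 119 TPM against 15.7, 31.7 and 141 TPM (2.86 ± 0.51, adjusted p = 0.00368). RETSAT, an oxidoreductase of retinol, had 1571, 1687 and 293 TPM against 152, 260 and 561 TPM (1.91 ± 0.38, adjusted p = 0.00916). In each replicate 4 lay within the 17 and replicates 1 and 2 above them. LDHB and RETSAT lost their calls without replicate 1 or 2, and SERPINF1 without replicate 2.

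**Figure D4:**
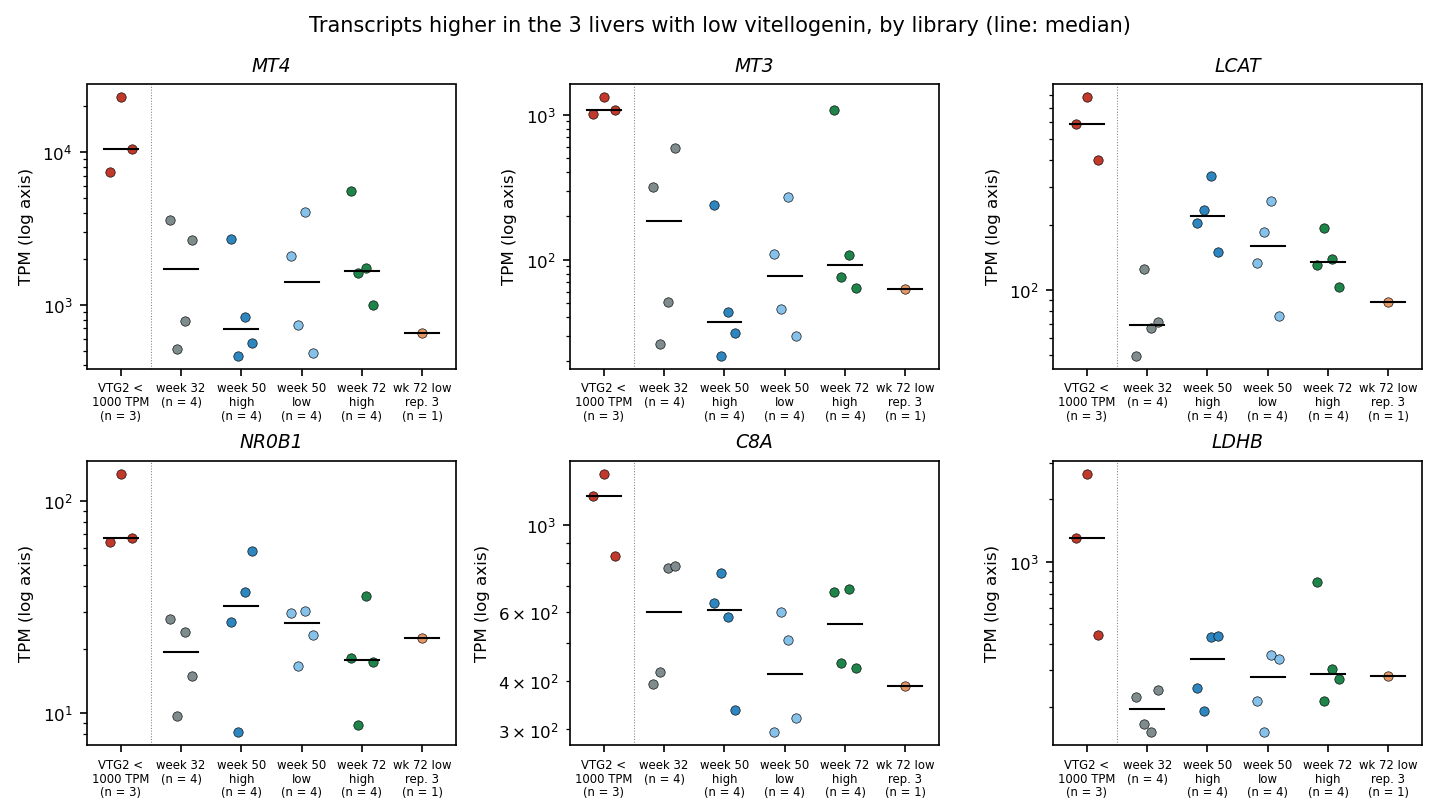
TPM on a log axis of 6 genes called higher, a point per library and a line at each median, with the 3 livers left of the dotted line and the 17 others by age and laying class to its right. MT4 reads 7431 to 22750 TPM in the 3 livers and at most 5543 TPM elsewhere, while 1 of the 3 overlaps the 17 for LDHB and week 72 high replicate 1 overlaps them for MT3.

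Plasma protein genes, some of them also on the yolk precursor list, gave few calls. ALB, albumin, had 34919, 11972 and 31504 TPM against 5194, 22398 and 31858 TPM (0.23 ± 0.42). The 10 hepatocyte markers, among them the yolk carriers APOA1, TTR and TF, summed to between 98717 and 157630 TPM in the 3 livers. The lowest, median and highest sums of the 17 were 64309, 87788 and 126120 TPM. Of the 10 differences 7 were positive, with a median of 0.56, 6 at an unadjusted p under 0.05 in limma on the higher side and 1 on the lower. AHSG, the liver glycoprotein fetuin, was the called exception, with 1265, 1034 and 2353 TPM against 1624, 5415 and 9771 TPM (-1.81 ± 0.37, adjusted p = 0.0136), a call lost without replicate 1 or 2. AHSG was not called in limma after median-ratio scaling (adjusted p = 0.0654). In the complement and coagulation list 31 of 36 differences were positive, with a median of 0.37, 14 had an unadjusted p under 0.05 on the higher side, and 1 passed. Over all tested genes 34.2% were positive and 3.06% reached that p on the higher side, or 7.29% after median-ratio scaling. The called member was C8A, part of the membrane attack complex, at 1187, 1351 and 834 TPM against 295, 509 and 786 TPM (1.12 ± 0.27, adjusted p = 0.0436), whose call was lost in 11 of the 20 fits without 1 library.

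C4BPS, related to the complement inhibitor that binds C4b, had 1496, 1701 and 1546 TPM against 539, 893 and 1159 TPM (0.96 ± 0.23, adjusted p = 0.0378), and lost its call in 6 of the 20 fits. Its values were closely grouped in the 3 livers. HPX, which binds heme, had 22851, 20217 and 21586 TPM against 3773, 7537 and 16512 TPM without overlap, and missed the threshold (1.48 ± 0.37, adjusted p = 0.0532). In the acute phase list 0 of 26 passed in limma, 0 had an unadjusted p under 0.05 on the lower side and 7 on the higher, and the median was 0.34. The direction of the complement median was kept under median-ratio scaling (0.52) and after rescaling (0.26).

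Differences in the interferon and cell cycle lists were mostly negative, with 1 call in the 2 lists, while over all tested genes 65.8% were negative and 10.03% had an unadjusted p under 0.05 on the lower side. In the interferon list 33 of 33 differences were negative with a median of -0.94, 18 had an unadjusted p under 0.05 and 0 were called. Its median deviation was -1.19, -0.83 and -0.70 in the 3 livers and ranged from -1.04 to 0.91 in the 17, so that the groups overlapped. The antiviral GTPase MX1 had 3.16, 3.43 and 7.72 TPM against 1.82, 22.7 and 114 TPM. In the cell cycle list 30 of 32 were negative, with a median of -0.82, 23 had an unadjusted p under 0.05 on the lower side, and PRC1, a protein of the dividing spindle, was called (-1.38 ± 0.34, adjusted p = 0.0449), though not in 15 of the 20 fits without 1 library. PRC1 was not called in limma after median-ratio scaling (adjusted p = 0.0662). RRM2, which supplies nucleotides for DNA synthesis, had 0.310, 1.29 and 0.823 TPM against 1.33, 7.62 and 28.1 TPM (-2.001 ± 0.54, adjusted p = 0.0738). Genes related to these themes but on neither list were also called, among them the lower STMN1 (-1.97), IL22RA1 (-2.26), CHEK1 (-1.05), MYBL2 (-0.95), CHAF1A (-0.79) and TOPBP1 (-0.67), and the higher MHCY2 (2.42). They were named after their values were seen. TOPBP1 lost its call in 15 of the 20 fits without 1 library, MHCY2 in 14, and MYBL2 and CHAF1A in 12 each. IL22RA1 lost its call without any of the 3 livers, CHEK1 without replicate 1 or 2 and STMN1 without replicate 1. After median-ratio scaling CHEK1 was not called in limma (adjusted p = 0.0674). Against the week 72 high livers alone, the cell cycle median was -0.47 and the interferon median -0.73.

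Of the markers of T and natural killer cells 10 of 11 differences were negative, with a median of -0.63, 4 at an unadjusted p under 0.05 on the lower side and 1 on the higher, and 0 called in limma. Their summed level was 73.6 to 123 TPM in the 3 livers and 72.0 to 345 TPM in the 17, and none was at 0 in all of the 3. Macrophage markers had a median of 0.08, with sums of 1989 to 3240 TPM against 2091 to 6138 TPM. B or plasma cell markers were negative in 5 of 5, with a median of -0.68, 0 called in limma, 1 at an unadjusted p under 0.05 on the lower side, and sums of 58.2 to 352 TPM against 65.2 to 11087 TPM. Stellate or matrix markers were negative in 10 of 13, with a median of -0.32, 0 called in limma, 1 at an unadjusted p under 0.05 on the lower side, and sums of 121 to 258 TPM against 105 to 344 TPM. The part of these cells in the interferon and cell cycle values was not tested. In bulk tissue fewer cells of a type and less RNA per cell cannot be told apart, here and for every gene above.

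**Figure D5:**
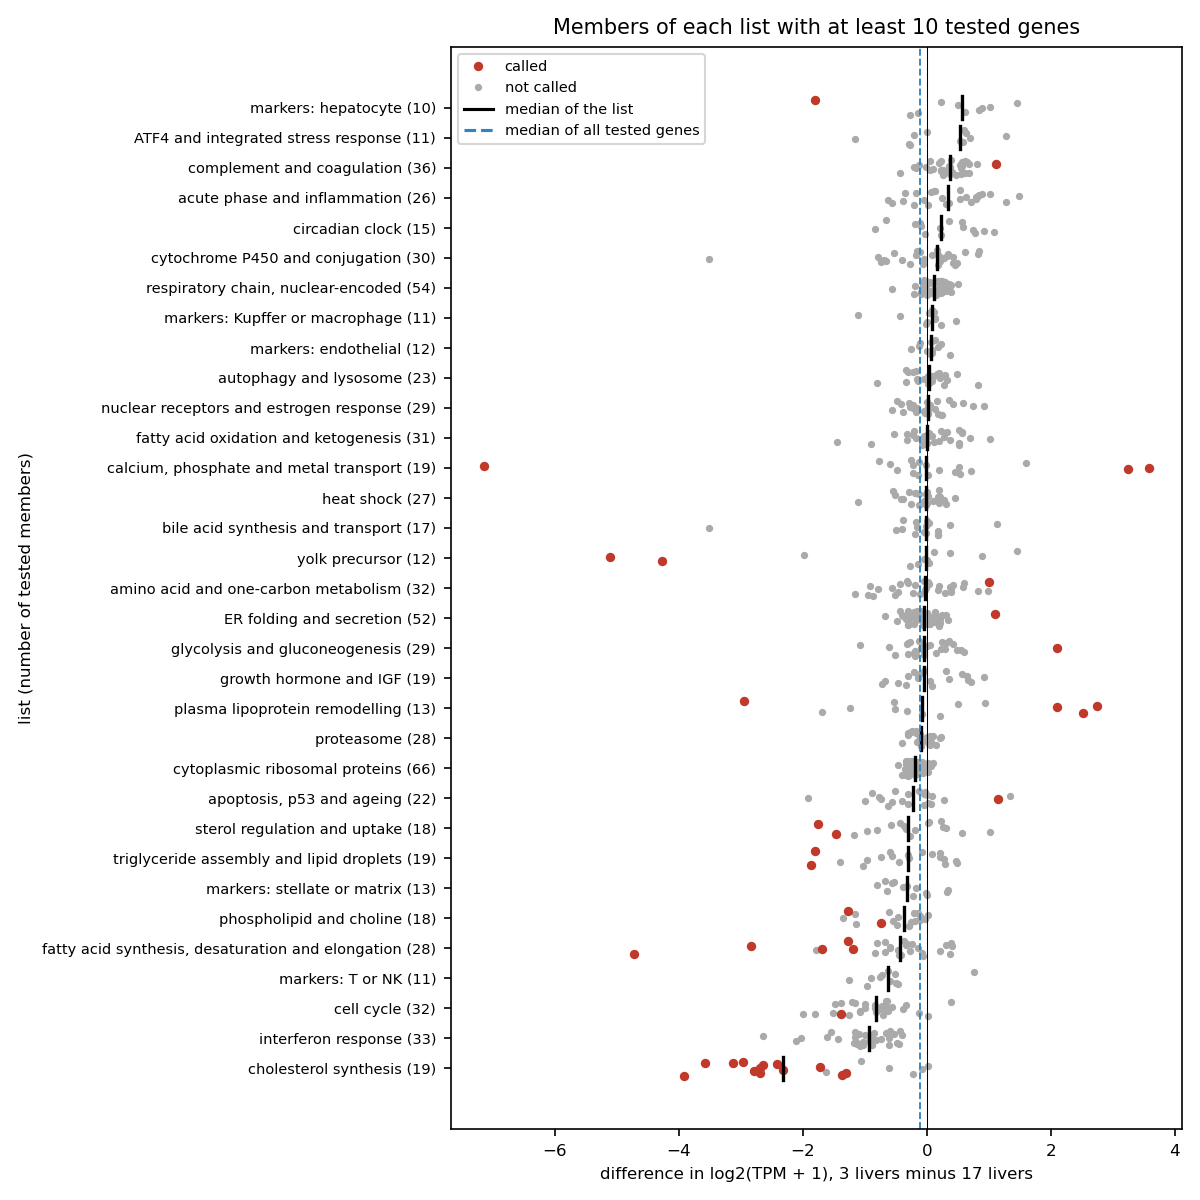
Difference in log2(TPM + 1) of each tested member (points, red where called) of lists with at least 10 tested members, in rows sorted by their median (black bar), with the median of all tested genes at -0.11 (dashed). The cholesterol synthesis median of -2.32 lies far from the others, while interferon and cell cycle genes lie to the left without red points other than PRC1.

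The estrogen receptors through which yolk synthesis is switched on were detected in all livers. ESR1, the estrogen receptor of liver, had 12.7, 10.8 and 5.95 TPM in the 3 livers against 5.76, 15.9 and 26.1 TPM in the 17 (-0.49 ± 0.36). ESR2 differed by 0.01 ± 0.48, and HNF4A, a factor of hepatocyte identity, by -0.41 ± 0.37. The growth hormone receptor GHR differed by -0.05 ± 0.25. Of the 29 tested members of the nuclear receptor and estrogen response list 0 passed in limma, with 1 at an unadjusted p under 0.05 on the lower side and 3 on the higher. CYP7A1, the rate-limiting enzyme of bile acid synthesis, had 0.834, 1.32 and 16.0 TPM against 1.76, 56.8 and 397 TPM, and its wide spread left it uncalled (-3.51 ± 1.08, adjusted p = 0.126). Ribosomal protein genes had a median of -0.18 over 66, nuclear-encoded respiratory chain genes of 0.11 over 54 and proteasome genes of -0.09 over 28. After median-ratio scaling these medians became -0.04, 0.26 and 0.05. Before it, differences were negative in 61 of the 66, 18 of the 54 and 18 of the 28, beside 65.8% of all tested genes. All of these lists had 0 called in limma. Unadjusted p under 0.05 was reached by 5 ribosomal genes on the lower side, by 1 respiratory chain gene on the lower and 3 on the higher side, and by 1 proteasome gene on the lower side, beside 10.03% of all genes on the lower and 3.06% on the higher side.

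Several lower genes had no place on a list. PDE11A, a phosphodiesterase of cyclic nucleotides, had 18.8, 0.342 and 4.48 TPM against 30.4, 59.8 and 126 TPM (-3.59 ± 0.49, adjusted p = 0.000128). The transcription factor SOX7 had 3.13, 5.52 and 2.07 TPM against 10.8, 36.2 and 97.6 TPM (-3.10 ± 0.47, adjusted p = 0.000529). ELAPOR2, a membrane protein, had 1.41, 0.535 and 0.870 TPM against 2.28, 21.6 and 71.4 TPM (-3.40 ± 0.65, adjusted p = 0.00688), with week 72 low replicate 3 at the top of the 17. In these the 3 livers were below every other. NPTXR, a pentraxin receptor known from neurons, differed by -3.13 ± 0.48 and the microRNA gene MIR1652 by -3.20 ± 0.57. MIR1652 is listed at 2.64, 1.25 and 0 TPM against 3.94, 16.0 and 53.4 TPM and lies inside CBX2, which was called too (-1.49), so that their reads may be shared. ELAPOR2 lost its call without replicate 2 and MIR1652 without replicate 4. In all, 135 of the 144 called genes were protein coding, 4 long non-coding and 1 a microRNA, and 4 had no entry in the gene table. Among the 12805 tested genes these classes held 11648, 540, 169 and 248, so protein coding genes were most of both.

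Called genes often lay beside another. Of 140 called genes with a position, 37 (26.4%) lay within 50 kb of another called gene, against 592 of 12310 other tested genes (4.81%) within that distance of a called one. On chromosome 1, FAM20CL stands between NPTXR, 11289 bases away, and SUN2 (-1.93), 538 bases away. On chromosome 20, WFDC2, WFDC8, SPINT4 and the non-coding LOC107054850 (-2.36) follow each other with gaps of 2361, 345 and 2532 bases. APOV1 lies 20937 bases from CLDND1 (-1.93) and ELOVL2 5461 bases from SYCP2L (-2.84). FADS1 and FADS2, and MT4 and MT3, are neighbours as well. CETP (2.75) and HERPUD1 (1.11), both higher, lie 2275 bases apart on chromosome 11. No source used here gives the strand setting of the counting, so transcripts of close or overlapping genes cannot be told apart with certainty. This holds for LOC107053992, which was called (-4.53 ± 0.93) and overlaps VTG1.

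Among the 17 livers above the threshold, VTG2 varied between 4528 and 19153 TPM, and its level was set against every gene there, without the 3. VTG2 is both the measure that made the split and the predictor here, so these slopes describe what goes with VTG2 and are no separate support for the split. A positive slope means that a gene was higher where VTG2 was higher. FAM20CL (1.09 ± 0.16 log2 units per log2 unit of VTG2, adjusted p = 0.0149), APOV1 (0.95 ± 0.16, adjusted p = 0.0294) and RBP (0.79 ± 0.14, adjusted p = 0.0313) were the 3 genes called (0.0234%), and 7 (0.0547%) had a negative slope (0.0781% in either direction), among them the replication factor MCM5 (-0.96 ± 0.17). The others were SLC11A1, MXD3, IRF4, LIN37, NCKAP1L and PIM1. Week 50 low replicate 3 also had the highest B or plasma cell markers, with a median deviation of 4.17 and a sum of 11087 TPM, and the median slope of these markers was -1.60. Their part in the slopes was not tested. Unadjusted p under 0.05 was reached by 227 positive and 1601 negative slopes. The positive calls were 0 without week 50 low replicate 3, which had the lowest VTG2 of the 17, and 1 without week 32 replicate 1, week 50 high replicate 4 or week 72 high replicate 4. The negative calls were 0 without week 50 low replicate 3, week 32 replicate 1 or week 72 high replicate 4, and 106 without week 50 low replicate 4, and lay at 1 to 4 without 9 others.

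The sterol genes had no such slope: values of the 19 members lay between -0.60 and 0.18, with a median of -0.09 and a lowest adjusted p = 0.445. CYP51A1 had -0.04 ± 0.24 and SQLE -0.07 ± 0.38. SCD had 0.53 ± 0.30, ELOVL2 0.58 ± 0.18, LCAT -0.79 ± 0.28 and MT4 -0.41 ± 0.51, none of them passing. The slope and the difference of the 3 livers share the 17 livers as data, so these values stand side by side only.

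Set against livers of the same age, the 4 week 72 high ones, the largest differences stayed near the same size. FAM20CL differed by -7.31 ± 0.29 (adjusted p = 4.33e-05), CYP51A1 by -2.88 ± 0.28 (adjusted p = 0.00877), SQLE by -4.11 ± 0.49 (adjusted p = 0.0203) and WFDC8 by -2.93 ± 0.36 (adjusted p = 0.0234). With fewer libraries other genes missed the threshold at a like size, such as APOV1 (-5.36 ± 0.94, adjusted p = 0.0869), SCD (-4.56 ± 0.96, adjusted p = 0.157) and MT4 (2.61 ± 0.62, adjusted p = 0.216). Of the 144 called genes 25 were called there. Against week 72 low replicate 3 alone, in a fit with a mean for each labelled group and the lone library assumed to vary like the rest, 14 of the 144 were called. FAM20CL then differed by -7.58 ± 0.69 (adjusted p = 1.8e-05) and CYP51A1 by -2.96 ± 0.52 (adjusted p = 0.0322).

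In sums and detected genes the 3 livers lay within the 17. Their listed genes summed to 794030 to 822630 TPM, against 764050 to 852810 TPM in the 17, and 17253 to 17416 genes were above 0, against 17155 to 18005. TPM gives no read depth. Median Spearman correlations with the other libraries were 0.923 to 0.934 in the 3 and 0.923 to 0.953 in the 17. Week 72 low replicate 2 was one of the 3 libraries least like the others, with week 50 high replicate 1 and week 50 low replicate 3, and without these 121 genes were lower and 27 higher, 85 of the 148 being among the 144. On the first principal component, with 16.9% of the variance, the 3 scored -30.9 to -26.9, at the low end, and the 17 -29.0 to 38.5. On the second, with 13.3%, the 3 scored -43.5 to 14.1 and the 17 -52.8 to 22.3. There week 72 low replicate 2 had -43.5, near week 50 low replicate 3 at -52.8 and week 50 high replicate 1 at -36.8. Week 72 low replicates 1 and 4 had 14.1 and 7.54. On the third, with 10.5%, the 3 scored 11.4 to 35.5 and the 17 -31.6 to 17.99, and replicates 1 and 4 lay above all 17. Pancreas markers summed to at most 0.490 TPM in the 3 livers and 0.692 TPM in the 17.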

How the data were processed

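The authors deposited a table of TPM for 21749 genes in 20 liver libraries, and the submitters' processing notes name build GRCg7b. No aligner, counting tool or filter is named in what was used here: they are not given in the sources. TPM keeps no absolute depth, so no count model was run. Symbols were matched to a RefSeq table of GRCg7b (20888 matched, 861 did not).

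A gene was tested where 4 libraries or more reached 1 TPM (12808, or 12805 without VTG1, VTG2 and VTG3) on log2(TPM + 1), a scale that understates changes of low genes. limma 3.58.1 in R 4.3.3, with a mean-variance trend, compared the libraries under 1000 TPM of VTG2 with the rest (18 residual degrees of freedom). A second fit took the slope on log2(VTG2 + 1) in the 17 others (15 degrees of freedom). Tests were two-sided, with Benjamini-Hochberg adjustment over all genes and a threshold of 0.05. Errors are SE of these fits. A p-value describes how a gene goes with a split made on a measured gene, not an effect of a treatment. The code was checked on simulated data. Plots were made with matplotlib 3.10.9.

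Named were up to 15 called genes per direction without overlap by size, the list of yolk precursors, up to 4 members of smallest p, any called member and key regulators of other lists. CLDND1, CTSEAL, DBI, ENPP7, FABP1, IDI2, LOC107053992, LOC107054850, MTF1, MTTPL, NCEH1, RETSAT, SERPINF1, SLC39A5, SPINT4, SUN2, SYCP2L, TCN2, TMPRSS6, WFDC2, WFDC8, ZP1 and CBX2 were picked once their values were known, as were the genes named for their slope and the called genes related to the interferon and cell cycle lists. The members and lists were chosen with earlier results of these data known. The alternatives were the pseudocount, the filter, the scaling, the variance model, library weights, a replicate block, age and class terms, subsets of libraries and each library left out. Values of some called genes are not reported here, although the counts include them.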

Additional observations from a re-analysis of the deposited data

Results flagged for a closer look

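Within the labelled groups of 4 libraries, 320 sets of values of the named genes were looked at for a library far from its group, and 25 (7.81%) held one. Chance gives about 1 in 20 groups. In week 72 low, replicate 3 stood apart from the 3 livers in genes that were mostly named for differing between those 3 and the rest. The chance rate does not apply there, and these values are a description.

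In the week 72 low group, replicate 3 stood apart with 2140 TPM of FAM20CL against 8.66 to 11.2 TPM in the other members, 95.5 TPM of MBOAT2 against 1.05 to 2.90 TPM and 71.4 TPM of ELAPOR2 against 0.535 to 1.41 TPM. The same library had 27.6 TPM of NPTXR against 0.722 to 1.45 TPM, and it was low in C4BPS with 542 TPM against 1500 to 1700 TPM and in MT3 with 62.5 TPM against 1000 to 1320 TPM.

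Among the 17 livers, week 50 high replicate 3 had 523 TPM of FAM20CL, the lowest value of the 17, 27.2 TPM of MVK against 41.1 to 43.8 TPM and 273 TPM of SC5D against 463 to 509 TPM. Week 50 high replicate 1 had 272 TPM of APOB against 1890 to 2290 TPM, 32.0 TPM of MTTP against 82.1 to 95.9 TPM and 157 TPM of AGPAT2 against 57.5 to 66.2 TPM. Week 50 high replicate 4 had 1630 TPM of FADS2 against 651 to 749 TPM and 565 TPM of C4BPS against 893 to 968 TPM.

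Week 72 high replicate 1 was low in SCD (509 TPM against 1770 to 2250 TPM) and MBOAT2 (11.9 TPM against 71.8 to 91.2 TPM) and high in C4BPS (1060 TPM against 706 to 722 TPM), and week 72 high replicate 4 was high in APOV1 (73300 TPM against 42300 to 43900 TPM). Week 50 low replicate 3 had 3.71 TPM of LPL against 0.198 to 0.307 TPM, 36.1 TPM of CDIPT against 24.9 to 26.0 TPM and 782 TPM of FADS2 against 956 to 994 TPM. Week 50 low replicate 2 had 2780 TPM of TTR against 3920 to 4140 TPM. Week 32 replicate 4 had 1.06 TPM of BHLHE22 against 0.318 to 0.414 TPM and 95.9 TPM of AMT against 68.5 to 71.8 TPM, and week 32 replicate 2 had 243 TPM of ACACA against 136 to 145 TPM.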

How the results depend on the processing

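Of the 144 calls, 40 were made in all 20 fits without 1 library. Genes called lower, 116 as reported, were 185 with a pseudocount of 0.1, 303 rescaled without VTG1, VTG2, VTG3 and APOV1, 791 with array quality weights, 46 with age and laying class terms, 19 with a mean per labelled group, 55 among week 72 libraries, 28 against week 72 high, and 50 to 160 without 1 library. Genes called higher, 28 as reported, were 56 with median-ratio scaling, 165 with weights, 2 with age and class terms, 2 with a mean per group, 4 within week 72, 3 against week 72 high, and 12 to 40 without 1 library. Positive slopes, 3 as reported, were 1 with weights and 0 with no filter, the replicate block, group means or without the 3 least alike libraries, and 0 to 4 without 1 library. Negative slopes, 7 as reported, were 2 with a pseudocount of 0.1, 4 with a filter of 5 TPM, 1 with weights, 0 with no filter, rescaling, the replicate block, group means or without those 3, and 0 to 106 without 1 library.

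The deviations gave no sign of pairing by replicate number. Same-numbered libraries correlated between -0.27 and 0.28 (median 0.03), and differently numbered ones between -0.30 and 0.36 (median -0.01). Whether the numbers stand for a shared batch cannot be told from these values. With the replicate block 137 genes were called, 115 of them among the 144.

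Yolk genes near 0, none called, changed sign. MTTP (0.01) was -0.11 rescaled, -0.018 with weights, -0.015 with the block, -0.11 without the 3 least alike libraries and -0.068 to 0.11 without 1 library. RBP4 (0.03) was -0.062 rescaled, -0.0068 with the block, -0.42 with age and class terms, -0.59 with group means, -0.41 within week 72, -0.36 against week 72 high and -0.14 to 0.26 without 1 library. TTR (-0.27) was 0.067 against week 72 high and -0.85 to 0.14 without 1. BTD (-0.05) was 0.087 with median-ratio scaling, 0.10 with age and class terms, 0.10 with group means and -0.090 to 0.011 without 1. TF (-0.14) was 0.0015 with median-ratio scaling, 0.15 with weights, 0.18 with age and class terms, 0.24 with group means, 0.15 without the 3 and -0.39 to 0.10 without 1. APOA4 (0.11) was -0.0046 rescaled, -0.21 with weights, -0.072 with the block, -0.080 with age and class terms, -0.092 against week 72 high, -0.47 without the 3 and -0.42 to 0.48 without 1. APOA5 (0.37) was -0.035 with group means. The cause of these changes was not tested. The depth is unknown, so counting error of genes at a few TPM is too.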

Other observations

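Gene groups outside lipid and yolk supply also had values to record. In the integrated stress response list 7 of 11 differences were positive with a median of 0.53 and 0 called in limma (1 at an unadjusted p under 0.05 on the lower side, 2 on the higher), and its factor ATF4 had 1313, 1335 and 764 TPM in the 3 livers against 416, 688 and 1223 TPM in the 17 (0.64 ± 0.27, adjusted p = 0.296). HERPUD1, which helps clear misfolded proteins from the endoplasmic reticulum, had 213, 102 and 99.98 TPM against 31.7, 60.1 and 105 TPM and was the called member of 52 genes of folding and secretion (1.11 ± 0.27, adjusted p = 0.0436), a call lost in 13 of the 20 fits without 1 library. HERPUD1 lies 2275 bases from CETP, also called higher, and transcripts of such close genes cannot be told apart with certainty here. The list median was -0.04, and 0.10 after median-ratio scaling. TMPRSS6, a liver protease that lowers the iron hormone hepcidin in mammals, had 229, 196 and 233 TPM against 240, 398 and 583 TPM (-0.82 ± 0.18, adjusted p = 0.0203), a call lost without any of the 3. After median-ratio scaling TMPRSS6 was not called in limma (adjusted p = 0.0841). The aspartic protease gene CTSEAL, abundant in all livers, had 703, 1051 and 575 TPM against 1298, 2556 and 3541 TPM (-1.69 ± 0.25, adjusted p = 0.000302). ENPP7, an alkaline sphingomyelinase, had 0.0821, 0.0777 and 0.0778 TPM against 1.58, 3.16 and 15.1 TPM (-2.24 ± 0.46, adjusted p = 0.0128), lost without any of the 3 as well. These last 3 genes were picked with their values known.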
